A study of Homo sapiens with 40 samples.

Results

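ONO-AE1-329 (here ONO) is an agonist of EP4, one of the receptors for prostaglandin E2, and roflumilast N-oxide (RNO) inhibits the PDE4 phosphodiesterases. The comparison described here sets 4 libraries from cells given 0.1 nM ONO plus 1 uM RNO against 4 libraries from cells given 1 uM RNO alone. Both groups therefore carry the PDE4 inhibitor and differ in the agonist. These 8 of the 40 libraries of the study were taken by their treatment labels, and all genes in the deposited table were considered. All 40 libraries came from BEAS-2B, a single immortalised line from human bronchial epithelium, which was grown to confluence, held overnight in medium without serum and treated for 2 h. The other groups, of 4 libraries each, received vehicle, ONO alone at 0.1 nM, 1 nM or 1 uM, RNO with ONO at 1 nM or 1 uM, or 100 nM of the β2-adrenoceptor agonist vilanterol without or with RNO. The labels call 0.1 nM a submaximal concentration of the agonist. They do not say that replicates were separate cultures, so p-values measure the spread among these libraries only, and that spread may be technical.

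EP4 couples to the G protein Gs, which drives adenylyl cyclase to make cyclic AMP (cAMP). PDE4 enzymes break cAMP down, so a PDE4 inhibitor and an agonist of a Gs-coupled receptor act on opposite ends of the same messenger. cAMP activates protein kinase A, which phosphorylates the transcription factor CREB, and CREB binds the cAMP response element in the promoters of early genes such as the NR4A nuclear receptors. Drugs that raise cAMP relax airway smooth muscle, and in airway epithelium they are known to modulate inflammatory gene expression.

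Levels are normalised TPM (a unit scaled for transcript length and sequencing depth, normalised between libraries by the authors), as mean ± SD of 4 libraries unless single libraries are listed. The 40 libraries summed to between 956888 and 1091466 TPM, of which the entry MIR6723 took 24.2 to 27.8%. Both highest values belonged to vehicle replicate 3, which enters every comparison with vehicle below. Without read counts the depth of each library is unknown. The cells carried little RNA of the epithelial surface genes EPCAM (0.27 ± 0.23 TPM in RNO) and CDH1 (0.803 ± 0.123 TPM), while the epithelial keratins KRT8 and KRT18 stood at 361 ± 46.3 and 289 ± 26.9 TPM. The mesenchymal genes VIM (1301 ± 42.7 TPM), FN1 (654 ± 80.9 TPM) and COL1A1 (481 ± 31.7 TPM) were high. THY1, PDGFRB and CDH2 stood at 83.1, 54.2 and 38.3 TPM in RNO. Others of that list were low there: COL1A2 at 9.96, COL3A1 at 1.27, ACTA2 at 1.18 and PDGFRA at 0.061 TPM. Of the endothelial markers in the table, PECAM1, VWF, KDR and EMCN were each under 0.4 TPM on average in both groups. Of the 25 marker genes in the table, KRT17 alone was called between the 2 groups. The summed mesenchymal markers lay between 2476 and 2762 TPM in RNO and between 2546 and 2679 TPM in the combination.

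Adding 0.1 nM ONO to RNO raised 72 genes and lowered 7 of the 12591 tested. By the ratio of group means the largest increases were those of NR4A3, NR4A2, LINC00473, CRISPLD2, NR4A1, IL11 and TM4SF1, from 3.64-fold down to 2.07-fold. The lowered genes were HJURP, TRIM59, CCNF, BORA, PSRC1, TP53INP1 and CKAP2, of which HJURP and PSRC1 belong to the list of mitosis genes. The rule for a call was a limma p under 0.05 after Benjamini-Hochberg adjustment over all 12591 genes, and by it 0.627% of the tested genes were called, 0.572% higher and 0.0556% lower. The changes were small: by the same ratio 7 of the 72 rose at least 2-fold and 25 at least 1.5-fold, and 16 rose by less than 1.2-fold. The 7 lowered genes stood at 0.803 to 0.878 of their RNO level. In 72 of the 79 called genes the 4 and 4 libraries did not overlap, against 3.62% of all tested genes (2.34% higher and 1.28% lower), a description, since the same libraries made the calls. With the replicate number as a block, 330 genes were called (2.62%), 270 higher and 60 lower, and they included all 79. When 1 library was left out, the calls numbered 39, 47 and 33 without RNO replicates 1, 2 and 4, of which 37, 45 and 33 were among the 79. They numbered 44, 35 and 45 without replicates 2, 3 and 4 of the combination, of which 44, 35 and 43 were among the 79. When only these 2 groups were fitted, 32 genes were called, 29 of them among the 79.

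**Figure D1:**
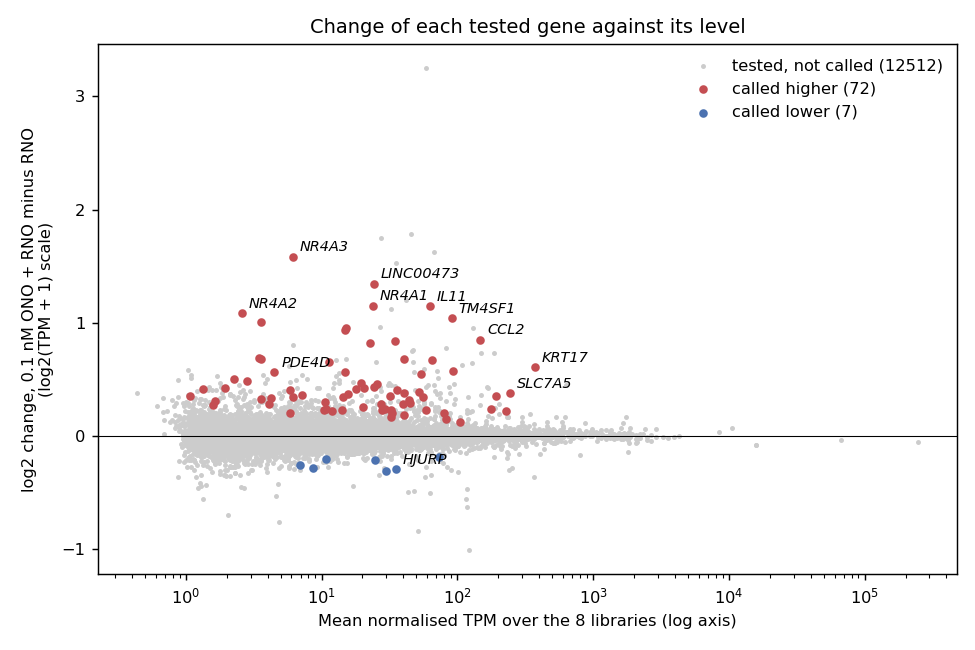
Change of each of the 12591 tested genes (log2 of TPM + 1, combination minus RNO) against its mean level over the 8 libraries on a log axis; red points are the 72 genes called higher, blue points the 7 called lower and grey points the rest. NR4A3 has the largest change among called genes, 1.58, and several grey points with larger or similar changes are small nucleolar RNAs.

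NR4A3 had the largest log2 change of the called genes. All 3 members of its family, the NR4A orphan nuclear receptors, which are textbook early targets of cAMP and CREB, rose. NR4A3 stood at 1.34, 3.26, 3.69 and 2.29 TPM in RNO replicates 1 to 4 and at 7.86, 11, 10.1 and 9.46 TPM in the combination. Every library of the combination lay above every RNO library. NR4A3 rose 3.64-fold, a log2 change of 1.58 with a 95% interval of 1.22 to 1.94 (limma adjusted p = 1.1e-06). NR4A2 stood at 0.774, 1.35, 2.04 and 1.14 TPM in RNO and at 4.18, 3.91, 3.85 and 3.47 TPM in the combination, and it rose 2.90-fold (limma adjusted p = 0.00048). NR4A1, the most abundant of the family in RNO, stood at 9.36, 16.6, 19.0 and 13.6 TPM there and at 28.2, 35.9, 30.4 and 37.4 TPM in the combination, 2.25-fold higher (limma adjusted p = 0.0032). Replicate 1 was the lowest RNO library for all of NR4A1, NR4A2 and NR4A3. Over the 72 raised genes, replicate 1 was the lowest RNO library in 37, replicate 2 in 9, replicate 3 in 3 and replicate 4 in 23.

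Other known cAMP-induced transcripts rose with them. LINC00473, a long non-coding RNA known as a CREB target, stood at 8.76, 15.1, 16 and 13.6 TPM in RNO and at 28.0, 35.0, 38.7 and 38.2 TPM in the combination. Its groups did not overlap, and it rose 2.62-fold (log2 change 1.35, limma adjusted p = 1.7e-05). ZNF331, a zinc finger protein, rose from 10.2 ± 2.09 to 20.3 ± 1.2 TPM (2.0-fold, limma adjusted p = 7.8e-05). DUSP1, the phosphatase that inactivates MAP kinases, stood at 61.7, 86.0, 77.7 and 72.5 TPM in RNO and at 104, 116, 108 and 116 TPM in the combination. DUSP1 rose 1.49-fold, with groups that did not overlap. Its limma adjusted p was 0.042, near the limit of the test, and 0.0014 with the replicate block. SGK1, a kinase that regulates ion channels and transporters, rose 1.80-fold from 25.0 ± 6.02 to 45.0 ± 5.46 TPM (limma adjusted p = 0.026, and 0.0019 with the block). Without the block the SGK1 call was lost when only the 2 groups were fitted (adjusted p = 0.06). It was also lost there when RNO replicate 1, 2 or 4 or combination replicate 1, 2 or 3 was left out (adjusted p up to 0.14). BDNF, a neurotrophin gene with a well-known CREB-driven promoter, went from 15.3 ± 2.58 to 20.7 ± 2.30 TPM (limma adjusted p = 0.049), with overlapping groups.

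**Figure D2:**
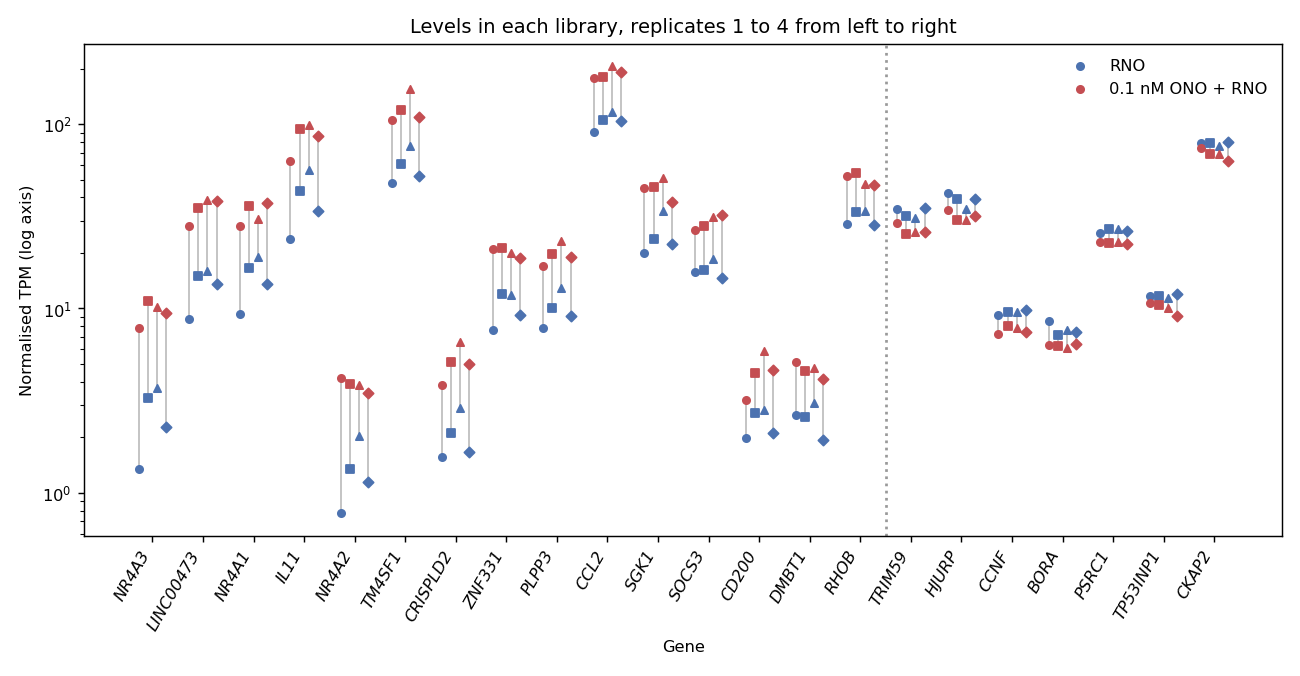
Normalised TPM on a log axis in each of the 8 libraries for the 15 highest and the 7 lower called genes with separated groups; blue is RNO, red is the combination, and grey lines join equal replicate numbers. Red lies above blue in all 4 replicates for the 15 genes left of the dotted line and below it in all 4 for the 7 genes to its right.

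Promoter sequence is shown for NR4A3, LINC00473 and DUSP1 as examples of raised genes of the cAMP list that hold letters of the CREB-binding element before the start. ZNF331, PDE4D and BDNF of that list hold such letters too and are not shown. The promoter sequences of NR4A1 and SGK1 do not hold them, and none was found for NR4A2. The stretches come from RefSeq (GRCh38.p14, a later build than that of the expression table, matched by gene symbol), on the strand of the gene, 5′ to 3′. Capitals mark TGACG and its reverse complement CGTCA, and TGACGTCA where both overlap in the full palindrome. The NR4A3 stretch (chr9:99821766-99821874, plus strand) runs from 119 to 11 bases before the start and holds 4 copies of the short motif. The LINC00473 stretch (chr6:165988117-165988216, minus strand) runs from 177 to 78 bases before the start and holds 2. The DUSP1 stretch (chr5:172771292-172771377, minus strand) runs from 182 to 97 bases before the start and holds 4, of which 2 form the full palindrome.
NR4A3: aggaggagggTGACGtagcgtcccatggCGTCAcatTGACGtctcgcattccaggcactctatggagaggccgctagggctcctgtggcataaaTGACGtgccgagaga
LINC00473: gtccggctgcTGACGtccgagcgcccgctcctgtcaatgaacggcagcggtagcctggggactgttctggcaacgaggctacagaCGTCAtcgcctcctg
DUSP1: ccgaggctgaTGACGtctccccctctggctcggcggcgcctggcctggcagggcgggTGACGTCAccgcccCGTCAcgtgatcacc

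Of the 72 raised genes, 58 had a promoter window in the RefSeq table (250 bases before to 50 after a start). TGACG, searched on both strands, stood in at least 1 window of 29 of the 58 (50%), against 4106 of the 9977 tested genes with a window (41.2%) and 24.6% of the 35116 windows in the table. The full TGACGTCA, which contains TGACG on both strands, stood in 5 of the 58 (8.62%), against 391 of 9977 (3.92%) and 1.85% of all windows. The 5 were AVPI1, DUSP1, CHMP1B, AFAP1 and DIO2. The shares of windows count each window once, whereas a gene counts if any of its windows holds the motif, so shares of genes and of windows are not alike. At least 4 copies of TGACG stood in 3 of the 58 (5.17%) and in 80 of the 9977 (0.802%). The 3 were NR4A3, DUSP1 and ZNF331, the last with 6 windows. The cut of 4 equals the number of copies in the NR4A3 and DUSP1 stretches shown above. This count is therefore not independent of the genes shown and supports nothing. None of the 6 lowered genes with a window held TGACG, and neither did the 2 windows of NR4A1. These counts describe letters and were not tested.

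Across the list of cAMP and CREB response genes, 9 of 23 tested members rose and none fell, against 0.572% of all tested genes called higher. This list, like the others, was chosen with earlier results of these data known, so its counts are a description. Apart from those named above, the 9 included PDE4D. The median log2 change of the list was 0.47, against -0.0028 over all tested genes, and 22 of its 23 members were above 0. With the replicate block 14 of the 23 were called higher, against 270 of all 12591 tested genes. The block added FOSB, PER1, RGS2, GEM and PMAIP1, whose adjusted p without it lay between 0.13 and 0.8. CREM, another early cAMP target, was at 8.05 TPM in RNO and 8.62 TPM in the combination, and CITED2 at 243 and 244 TPM, neither called in either fit.

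The cAMP machinery itself, from receptors and cyclases to phosphodiesterases and kinase subunits, had 2 of 34 tested members called higher and none lower. Over all tested genes 0.572% were called higher. The median log2 change of the list was 0.01. PTGER4, the gene of EP4, stood at 1.39 ± 0.165 TPM in RNO and 1.32 ± 0.257 TPM in the combination (log2 change -0.05, 95% interval -0.23 to 0.13, limma adjusted p = 1.0). The called members were PDE4D and AKAP12. PDE4D, a phosphodiesterase that RNO inhibits and that is itself a known cAMP-induced gene, stood at 2.51, 3.38, 4.26 and 3.65 TPM in RNO and at 4.92, 5.49, 6.44 and 5.30 TPM in the combination. Its groups did not overlap, and it rose 1.60-fold (limma adjusted p = 0.0015; 0.15 when only the 2 groups were fitted). AKAP12, a scaffold that anchors protein kinase A, rose 1.48-fold from 43.3 ± 5.89 to 63.9 ± 7.77 TPM (limma adjusted p = 0.018). The list count fell from 2 to 1 without RNO replicate 1 or 4 or combination replicate 3 or 4.

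PDE4B, another PDE4 gene known to respond to cAMP, was not called. It stood at 1.97, 2.27, 1.76 and 1.59 TPM in RNO and at 2.14, 1.84, 1.69 and 2.13 TPM in the combination, with overlapping groups. The log2 change of PDE4B was 0.03, with a 95% interval of -0.17 to 0.22 (limma adjusted p = 1.0; 0.97 with the replicate block). PDE4A was at 1.77 ± 0.237 and 1.76 ± 0.281 TPM. PDE4C averaged 0.422 TPM in RNO and was below the level tested. PDE4B was at 0.990 ± 0.104 TPM in vehicle, so the RNO group already stood above vehicle (log2 difference 0.54, limma adjusted p = 0.0044). In that comparison of RNO with vehicle 30 genes were called (0.238%), 13 higher (0.103%) and 17 lower (0.135%), and it shares the RNO libraries.

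Among secreted signals, 2 of 11 cytokines and chemokines rose and none fell (median log2 change 0.22, 7 above 0), against 0.572% of all tested genes called higher. IL11, a cytokine of the interleukin-6 family, stood at 24.0, 43.2, 56.3 and 33.6 TPM in RNO and at 63.0, 93.5, 99.5 and 85.8 TPM in the combination. The lowest combination library lay above the highest RNO library, and IL11 rose 2.2-fold (limma adjusted p = 0.0017; 0.14 when only the 2 groups were fitted). CCL2, the chemokine that attracts monocytes, stood at 91.0, 105, 117 and 104 TPM in RNO and at 177, 179, 206 and 191 TPM in the combination. CCL2 rose 1.81-fold with a wide gap between the groups (log2 change 0.85, SE 0.11, limma adjusted p = 1.1e-05). IL6 went from 5.66 to 8.69 TPM without a call in either fit (limma adjusted p = 0.58), and LIF from 10.4 to 13.7 TPM, called with the block only (adjusted p = 0.048 with it and 1.0 without).

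Of 22 genes on the list named negative regulators of inflammatory signalling, 4 rose and none fell, against 0.572% of all tested genes called higher. Whether each member restrains such signalling in these cells was not tested. Of the 22, 21 were above 0, with a median log2 change of 0.18 against -0.0028 over all tested genes. With the block 7 were called higher, against 270 of all 12591, KLF4, KLF6 and ZFP36L2 being added. SOCS3, which blocks cytokine receptor signalling, stood at 15.8, 16.2, 18.5 and 14.7 TPM in RNO and at 26.7, 28.1, 31.4 and 32.1 TPM in the combination, 1.82-fold higher (limma adjusted p = 2.1e-05). CRISPLD2, a secreted protein, rose 2.50-fold from 2.05 ± 0.594 to 5.13 ± 1.13 TPM (limma adjusted p = 0.00048). CD200, a surface ligand that dampens myeloid cells, rose 1.89-fold from 2.41 ± 0.426 to 4.55 ± 1.1 TPM (limma adjusted p = 0.0013; 0.15 when only the 2 groups were fitted). DUSP1 was the fourth. The negative regulators of NF-kB signalling NFKBIA and TNFAIP3 were at 13.9 and 15.4 TPM and at 1.33 and 1.45 TPM, neither called in either fit.

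The glucocorticoid-responsive list had 3 of 19 members called higher, against 0.572% of all tested genes. They were DUSP1, SGK1 and CRISPLD2, all shared with other lists. Leaving out any 1 of the 8 libraries brought that count to 1 or 2. The block brought it to 7 higher and 1 lower, against 270 higher and 60 lower of all 12591. CEBPD, a transcription factor, showed how the replicate numbers entered: it stood at 19.3, 32.6, 47.5 and 41.4 TPM in RNO and at 35.8, 56.9, 67.9 and 78.3 TPM in the combination. The groups overlapped but each replicate number was higher in the combination (limma adjusted p = 0.72 without the block and 4e-06 with it).

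None of the 26 tested immediate early genes was called without the block, and 9 rose with it, against 270 of all 12591 tested genes (FOSB, IER5L, MYC, KLF4, KLF6, MAFF, HBEGF, NFIL3 and CSRNP1). The median log2 change of that list was 0.19, and 22 of its 26 members were above 0. The AP-1 and growth-response genes FOSL1, JUN and EGR1 were at 97.4 and 90.7 TPM, 70.0 and 68.5 TPM, and 10.0 and 10.2 TPM in RNO and the combination, not called in either fit. Of 14 MAP kinase phosphatases and Sprouty genes, DUSP1 rose and none fell, against 0.572% of all tested genes called higher. DUSP4 and DUSP7 joined DUSP1 with the block. DUSP1 lost its call when any library but RNO replicate 2 was left out and when the libraries were rescaled to equal totals. No growth factor or receptor of 28 tested and no clock gene of 15 was called, and the block called 4 (AREG, EPGN, HBEGF and VEGFC) and 1 (PER1).

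**Figure D3:**
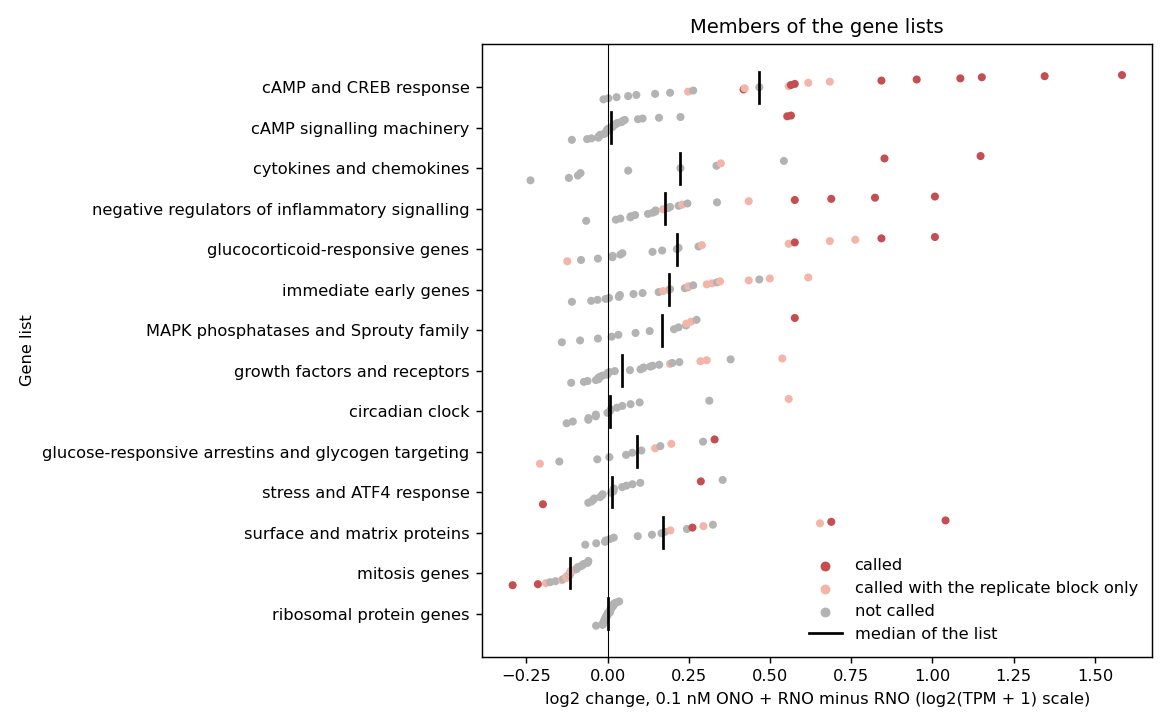
Log2 change (combination minus RNO) of each tested member of the 14 gene lists, 1 point a gene; dark red points were called, light red points were called with the replicate block only, grey points were not called, and the bar is the list median. The cAMP and CREB list has the highest median, 0.47, all mitosis genes lie below 0, and the ribosomal protein genes lie close to 0. The lists were chosen with earlier results of these data known.

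At the cell surface TM4SF1, a tetraspanin-like membrane protein, had the smallest adjusted p of all genes. It stood at 48.0, 61.0, 75.7 and 52.1 TPM in RNO and at 105, 119, 156 and 109 TPM in the combination. The groups did not overlap, and TM4SF1 rose 2.07-fold (log2 change 1.04, SE 0.10, limma adjusted p = 7.9e-08). Of 18 surface and matrix genes 3 rose, against 0.572% of all tested genes called higher. They were TM4SF1, CD200 and PLAUR, and the block added CD24, PLAU and F3. PLAUR, the urokinase receptor, went from 18.1 ± 0.846 to 21.9 ± 0.671 TPM (limma adjusted p = 0.04), and this call was lost without any 1 of the 8 libraries (adjusted p up to 0.2). KRT17, a basal-cell keratin and an abundant transcript here, stood at 308, 308, 287 and 268 TPM in RNO and at 479, 460, 426 and 426 TPM in the combination. KRT17 rose 1.53-fold (limma adjusted p = 0.0003). KRT8 and KRT18, which mark simple epithelia, were at 376 ± 44.0 and 313 ± 15.7 TPM in the combination and were not called.

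Other genes among the 15 highest act in lipid signalling, mucosal defence and the cytoskeleton. PLPP3, a lipid phosphate phosphatase that degrades extracellular lysophosphatidic acid, rose 1.99-fold from 9.96 ± 2.15 to 19.8 ± 2.53 TPM (limma adjusted p = 3e-05). DMBT1, a secreted scavenger-receptor protein of mucosal surfaces, rose 1.83-fold from 2.55 ± 0.471 to 4.65 ± 0.422 TPM (limma adjusted p = 0.0082; 0.081 without RNO replicate 4). RHOB, a small GTPase, rose 1.62-fold from 31.1 ± 2.87 to 50.3 ± 3.79 TPM (limma adjusted p = 0.021, and 6.7e-05 with the replicate block). In the fit without the block, the RHOB call was lost without RNO replicate 1 or 4 or combination replicate 1 or 2 (adjusted p up to 0.11).

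Of 18 tested genes of the stress and ATF4 response, HERPUD1 rose and TP53INP1 fell, with a median log2 change of 0.01 and 10 members above 0, and the block gave the same counts. Over all tested genes 0.572% were called higher and 0.0556% lower without the block. HERPUD1, a protein of endoplasmic reticulum quality control, stood at 35.8, 36.3, 34.8 and 35.7 TPM in RNO and at 45.6, 43.1, 40.3 and 46.2 TPM in the combination. Its groups did not overlap, and it rose 1.23-fold (limma adjusted p = 0.03). No member of the list was called higher when any library but combination replicate 3 was left out, and none was called lower without RNO replicate 4 or combination replicate 3 or 4.

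Among the remaining raised genes, those in this paragraph were picked for their known functions after their values were seen. SLC7A5, the large neutral amino acid transporter, went from 213 ± 26.0 to 276 ± 24.5 TPM, and SLC38A2, which carries small neutral amino acids, from 170 ± 17.3 to 218 ± 18.5 TPM. SLC19A2, a thiamine transporter, and SLC30A1, a zinc exporter, rose 1.28-fold and 1.19-fold. DIO2, the deiodinase that activates thyroid hormone and whose promoter window holds the full cAMP element, rose 1.41-fold from 1.36 ± 0.164 to 1.92 ± 0.185 TPM. PPP1R3B, which targets phosphatase to glycogen, rose 1.33-fold. It was the single call among 12 genes of arrestin-like and glycogen-targeting proteins, against 0.627% of all tested genes. That call was lost without RNO replicate 2 or 4 or combination replicate 2 or 3. Of the genes in which the step also differed with and without RNO, WDR66 went from 35.1 ± 2.54 to 46.0 ± 2.12 TPM, PTP4A1, a tyrosine phosphatase, from 39.1 ± 1.67 to 48.9 ± 1.25 TPM, and BCAR3, an adaptor protein, from 20.5 ± 2.26 to 28.0 ± 1.65 TPM. LATS2, a kinase of the Hippo pathway, rose 1.32-fold, and SMAD3, the transducer of TGF-beta signals, 1.18-fold. BCL3, an atypical IκB protein, rose 1.63-fold from 8.63 ± 1.45 to 14.1 ± 1.40 TPM. GREM1, an antagonist of bone morphogenetic proteins, went from 164 ± 10.4 to 193 ± 9.71 TPM, and PLAT, tissue plasminogen activator, from 30.5 ± 1.18 to 35.3 ± 1.56 TPM. The smallest called increase was that of NTN4, a netrin, at 1.09-fold. Adjusted p for the genes of this paragraph ran from 1.1e-06 for WDR66 to 0.049 for NTN4 and GREM1.

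The 7 lowered genes moved by small and regular amounts. HJURP, the chaperone that loads the centromeric histone CENPA, stood at 42.1, 39.2, 34.8 and 39.0 TPM in RNO and at 34.0, 30.0, 30.0 and 31.7 TPM in the combination. Its groups did not overlap, and HJURP fell by 0.29 on the log2 scale (95% interval -0.40 to -0.18, limma adjusted p = 0.0029). TRIM59, a ubiquitin ligase, stood at 34.7, 31.9, 31.1 and 35.0 TPM in RNO and at 29.1, 25.5, 26.2 and 25.9 TPM in the combination, and it fell by 0.30 (limma adjusted p = 0.0041). CCNF (cyclin F), BORA (an activator of Aurora A), PSRC1 (a spindle protein) and CKAP2 (a microtubule-associated protein) fell by 0.28, 0.25, 0.21 and 0.19. TP53INP1, a p53-induced gene of autophagy and cell death, fell by 0.20. In TRIM59 and HJURP the call held without each of the 8 libraries in turn, with adjusted p up to 0.039 and 0.034. CCNF, BORA, PSRC1 and CKAP2 lost it in 6, 7, 6 and 7 of those 8 fits and TP53INP1 in 3, with adjusted p up to 0.12, 0.25, 0.09, 0.31 and 0.12 in that order. When only the 2 groups were fitted, HJURP, TRIM59, BORA, TP53INP1 and CKAP2 missed the threshold (adjusted p = 0.15, 0.078, 0.16, 0.27 and 0.22), and with equal totals BORA, TP53INP1 and CKAP2 did (0.11, 0.11 and 0.19).

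All 25 mitosis genes lay below 0, also after either rescaling of the libraries, with a median log2 change of -0.12. HJURP and PSRC1 fell and none rose, against 0.0556% of all tested genes called lower. With the block 11 fell, against 60 of all 12591 tested genes. Among the 11 were PLK1, a mitotic kinase (79.2 ± 6.51 to 69.3 ± 4.94 TPM, adjusted p = 0.0003 with the block and 0.43 without), AURKA, TPX2, KIF23 and CENPE. None of the 25 was above 0 when any 1 of the 8 libraries was left out, and 1 or 2 were called. The single call was obtained without RNO replicate 2, 3 or 4 and without combination replicate 2, 3 or 4. In bulk RNA, fewer cells of a kind and less RNA per cell cannot be told apart. The 30 ribosomal protein genes had a median log2 change of 0.00, none called in either fit.

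Some small nucleolar RNAs, which guide the modification of other RNAs, had larger log2 changes than NR4A3 without a call, and those given here were chosen after their values were seen. SNORD77 was at 79.4, 0, 65.4 and 0 TPM in RNO and at 81.3, 71.9, 74.2 and 96.2 TPM in the combination (limma adjusted p = 0.12; 0.022 with the block). SNORA9 was at 40.6, 56.6, 0 and 33.4 TPM in RNO and at 49.9, 58.9, 53.1 and 70.3 TPM in the combination (limma adjusted p = 0.77). In RNO, SNORD77 is thus listed at 0 in replicates 2 and 4 and SNORA9 in replicate 3. The libraries were poly(A) RNA-seq, and whether these values measure the small nucleolar RNAs themselves was not tested.

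The same 0.1 nM of agonist without RNO, set against vehicle, shares no library with this comparison. limma called 0 of the 12591 genes there, with 736 at an unadjusted p under 0.05, and 0 also with each library left out in turn and in each other setting except the replicate block, which called 10 (0.0794%), none of them among the 79. Of the 72 genes raised under RNO, 33 were above 0 without RNO (45.8%, against 50.3% of all tested genes), and their median log2 change was -0.01. NR4A3 was at 1.35 ± 0.495 TPM in vehicle and 1.66 ± 0.679 TPM with 0.1 nM ONO, TM4SF1 at 48.9 ± 6.20 and 48.2 ± 2.40 TPM, and CCL2 at 120 ± 16.4 and 112 ± 18.3 TPM. PDE4B was among the 10 called with the block, at 0.990 ± 0.104 and 1.54 ± 0.233 TPM (adjusted p = 0.042 with the block, 0.8 without).

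Whether the step differed with and without RNO was tested directly, gene by gene, as the difference of the 2 log2 changes. limma called 17 genes (0.135%), 16 with the higher value under RNO (0.127%) and 1, TP53INP1, with the lower (0.00794%), while 872 had an unadjusted p under 0.05. TM4SF1 had the smallest adjusted p: its log2 change was 1.04 with RNO and -0.01 without, a difference of 1.05 (SE 0.14, adjusted p = 0.0002). NR4A3 differed by 1.42 (SE 0.25, adjusted p = 0.0062), CCL2 by 0.95 (SE 0.15, adjusted p = 0.0022) and SOCS3 by 0.95 (SE 0.15, adjusted p = 0.0022). Of the 17, 14 were among the 79, which the same 8 libraries had chosen, so that overlap supports nothing. The genes outside the 79 included MAP2K3, a kinase that activates p38, and UCK2, a uridine kinase. MAP2K3 was at 80.1 ± 6.73 TPM in vehicle, 67.3 ± 5.19 TPM with 0.1 nM ONO, 63.8 ± 4.17 TPM with RNO and 70.8 ± 3.77 TPM with both. UCK2 was at 27.4 ± 1.23, 25.2 ± 1.43, 24.9 ± 0.845 and 28.5 ± 0.552 TPM in the same order. With the block 324 genes were called (2.57%), including all 17, and when only the 4 groups were fitted 1 was called, or 5 after rescaling the libraries to equal totals. The test uses vehicle replicate 3, which had the highest total of the 40 libraries. That library also deviated most from its group mean (SD 0.209 log2 across tested genes). Leaving out 1 library gave 7 to 34 calls: 9, 7 and 8 without combination replicates 2, 3 and 4, 8, 34 and 7 without RNO replicates 1, 3 and 4, 7 and 8 without 0.1 nM ONO replicates 1 and 3, and 7 and 10 without vehicle replicates 2 and 4.

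**Figure D4:**
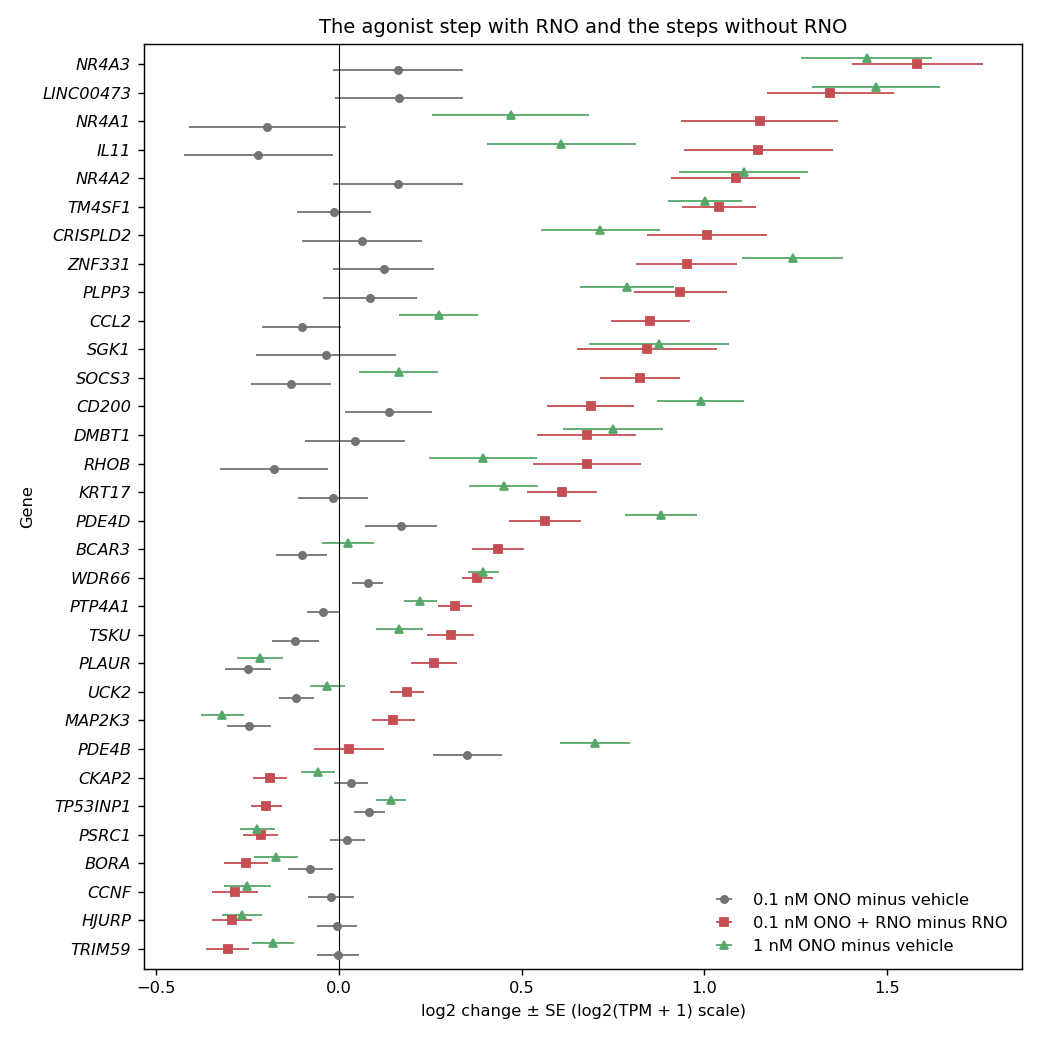
Log2 change ± SE for the named genes in 3 comparisons: 0.1 nM ONO minus vehicle (grey circles), 0.1 nM ONO + RNO minus RNO (red squares) and 1 nM ONO minus vehicle (green triangles). For NR4A3 and TM4SF1 the red squares stand near the green triangles, at 1.58 and 1.44 and at 1.04 and 1.00, while the grey circles stand at 0.16 and -0.01. They stand further apart for SOCS3 (0.82 and 0.16), CCL2 (0.85 and 0.27), NR4A1 (1.15 and 0.47) and BCAR3 (0.44 and 0.02). The scale is log2 of TPM + 1. By the ratio of group means NR4A3 rose 3.64-fold under RNO and 3.95-fold with 1 nM ONO alone.

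A concentration 10 times higher given without RNO offered a check in other libraries. For 1 nM ONO against vehicle limma called 127 genes (1.01%), 82 higher (0.651%) and 45 lower (0.357%). Of the 72 genes raised by 0.1 nM ONO under RNO, 31 were called higher there, which is 43.1% of the 72 and 37.8% of the 82. Of the 7 lowered genes 3 were called lower (HJURP, PSRC1 and CCNF), 42.9% of the 7 and 6.67% of the 45, and none was called in the opposite direction. The median log2 changes there were 0.26 for the 72 and -0.18 for the 7, and 63 of the 72 were above 0 (87.5%, against 51.1% of all tested genes). At 1 uM ONO without RNO, where 7.21% of tested genes were called, 65 of the 72 were called higher (90.3% of the 72 and 12.3% of the 528 called, 4.19% of all tested) and 6 of the 7 lower (85.7% of the 7 and 1.58% of the 380 called, 3.02% of all tested). All 72 were above 0 there (48.8% of all tested genes were), and TP53INP1 was the exception among the 7, with a log2 change of 0.07.

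The 0.1 nM step under RNO and the 1 nM step without it were also set against each other, a test added after values were seen. For NR4A3 the steps were 1.58 and 1.44 on the log2(TPM + 1) scale, a difference of 0.14 (SE 0.25), for TM4SF1 1.04 and 1.00, a difference of 0.04 (SE 0.14), and for NR4A2 1.09 and 1.11, a difference of -0.02 (SE 0.25). By the ratio of group means they were 3.64-fold and 3.95-fold, 2.07-fold and 2.01-fold, and 2.90-fold and 3.87-fold in that order. RNO and vehicle differed in level, at 2.65 and 1.35 TPM for NR4A3 and 1.33 and 0.654 TPM for NR4A2. Which NR4A3 step was larger thus depended on the scale. limma called 20 genes (0.159%), 15 with the higher value under RNO (0.119%) and 5 with the lower (0.0397%). With the replicate block 490 were called (3.89%), 17 of them among the 79. Of the 72 raised genes 55 had the larger value under RNO, but the 72 were chosen for a high value there, so that count supports nothing. SOCS3 differed by 0.66 (SE 0.15, adjusted p = 0.059, and 0.005 with the block), CCL2 by 0.58 (SE 0.15, adjusted p = 0.12, and 0.008 with the block) and BCAR3 by 0.41 (SE 0.10, adjusted p = 0.083, and 0.00049 with the block). NR4A1 differed by 0.68 (SE 0.30) and IL11 by 0.54 (SE 0.29), not called in either fit. PLAUR was called in both fits, with a difference of 0.48 (adjusted p = 0.012). PLAUR stood at 23.3, 23.4, 22.5 and 20.9 TPM in vehicle and at 18.6, 16.9, 18.7 and 18.3 TPM in RNO. In the combination it was at 22.6, 21.6, 22.3 and 21.2 TPM, near the vehicle level. PDE4B had the most negative difference, -0.67 (SE 0.14, adjusted p = 0.016), with a log2 change of 0.03 under RNO and 0.70 at 1 nM alone. TP53INP1 differed by -0.34 (adjusted p = 0.0092). TP53INP1 stood at 10.2, 9.93, 9.47 and 9.93 TPM in vehicle and at 11.6, 11.6, 11.4 and 11.9 TPM in RNO. In the combination it was at 10.7, 10.4, 10.0 and 9.09 TPM, again near the vehicle level. On the other side stood ADM, the vasodilator peptide adrenomedullin, by 0.92 (adjusted p = 0.016), DUSP5, a nuclear phosphatase of ERK, by 0.90 (adjusted p = 0.0092), and SPRY4, an inhibitor of receptor tyrosine kinase signalling, by 0.72 (adjusted p = 0.036). These 3 had log2 changes of -0.54, -0.68 and -0.59 with 1 nM ONO against vehicle (adjusted p = 0.022, 0.00031 and 0.0017) and of 0.38, 0.22 and 0.13 under RNO, none called (with the block ADM was, adjusted p = 0.00072). RNO alone also stood below vehicle in them, by log2 differences of -0.55, -0.67 and -0.54 (adjusted p = 0.051, 0.0033 and 0.02).

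Under RNO, a further 10-fold rise in agonist, from 0.1 to 1 nM, gave 0 calls by limma (377 genes at an unadjusted p under 0.05). The block called 65 (0.516%), 40 higher and 25 lower, weights per library 11, a minimum mean of 5 TPM 2, and the fit without replicate 1 of 1 nM ONO + RNO 11. With the block, 16 of the 72 raised genes were called higher again and HJURP lower again. This step subtracts the same combination libraries that chose those genes. Its values for them are therefore not independent of that choice. NR4A3 went from 9.62 ± 1.33 to 16.5 ± 4.26 TPM (adjusted p = 0.022 with the block and 0.29 without), and PDE4D from 5.54 ± 0.646 to 7.75 ± 1.30 TPM (0.0084 and 0.19). CCL2 was at 188 ± 13.3 and 190 ± 25.0 TPM (log2 difference 0.01, SE 0.11).

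Over the whole range under RNO the genes followed different courses, given side by side because the RNO libraries are shared. Relative to RNO alone, NR4A3 stood 3.64-fold, 6.23-fold and 25.9-fold higher at 0.1 nM, 1 nM and 1 uM ONO. TM4SF1 stood 2.07-fold, 2.87-fold and 5.45-fold higher, and PDE4D 1.60-fold, 2.25-fold and 4.01-fold. CCL2 stood 1.81-fold, 1.83-fold and 1.91-fold higher, the narrowest range of these 5 genes. HJURP stood at 0.811, 0.696 and 0.549 of its RNO level.

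**Figure D5:**
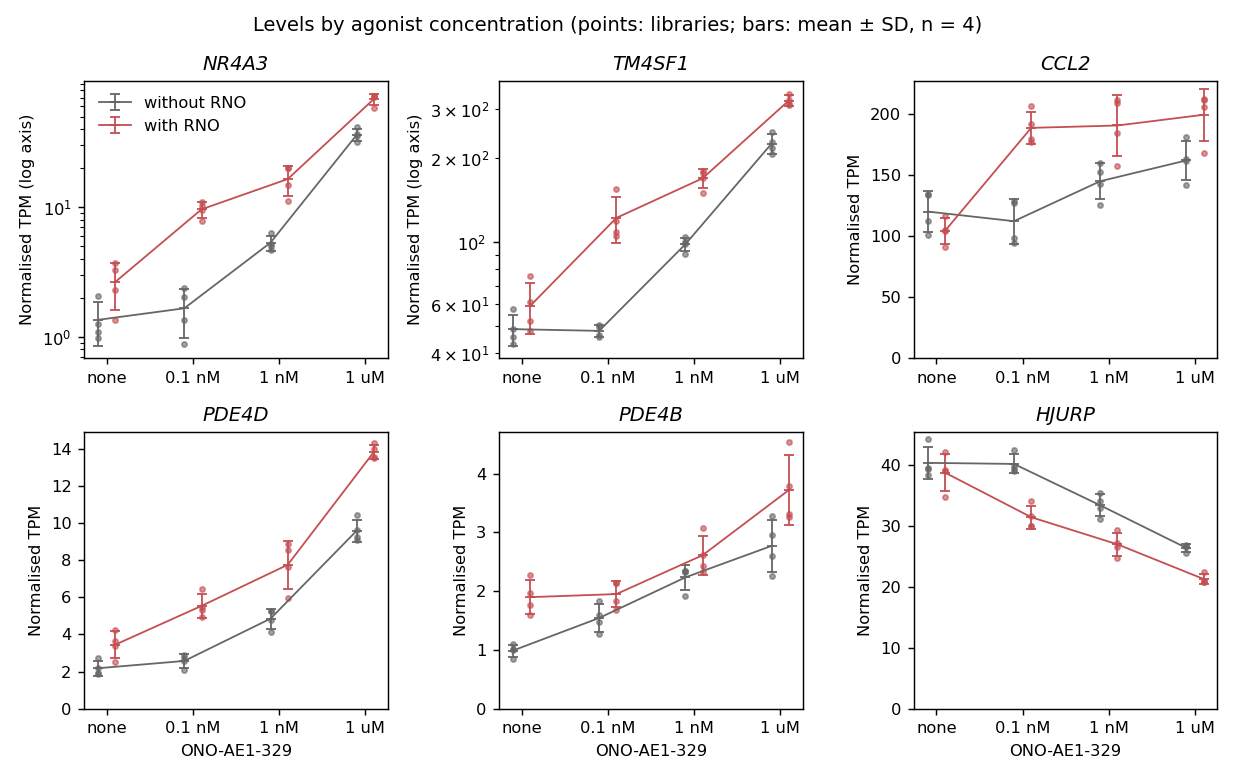
Normalised TPM by ONO concentration for 6 genes without RNO (grey) and with RNO (red); points are libraries and bars are mean ± SD of 4, and the NR4A3 and TM4SF1 axes are logarithmic. CCL2 with RNO is at 188 TPM at 0.1 nM and 199 TPM at 1 uM, whereas NR4A3 goes on from 9.62 to 68.6 TPM, and PDE4B with RNO is at 1.90 TPM without ONO and 1.95 TPM at 0.1 nM.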

How the data were processed

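RNA from 40 BEAS-2B libraries in 10 groups of 4 was measured by poly(A) RNA-seq. The authors deposited a normalised signal, TPM adjusted between samples, for 15788 genes. TPM had been assumed at first, but the totals of some columns are above what TPM allows, so the values were treated as a signal and tested as planned for TPM. The submitters' processing notes list the tools sleuth, kallisto and bcl2fastq 2.18.0.12 and the genome builds hg19 and GRCh37. No source used here gives versions for sleuth or kallisto. No counts were analysed, so no counting interval is given.

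After a filter that kept the 12591 genes averaging 1 TPM or more, log2(TPM + 1) was modelled across the 40 libraries by limma (version 3.58.1, R version 4.3.3), with 1 mean per group and an intensity trend (30 residual degrees of freedom). Folds are ratios of mean TPM, and log2 changes understate those of low genes. Adjusted p-values are limma's, by the Benjamini-Hochberg method within each comparison over all tested genes. Groups and replicate numbers came from the labels. Same-numbered RNO and combination libraries deviated together from their group means (r = 0.46, 0.2, 0.26 and 0.38 for replicates 1 to 4), so the numbers were taken as pairing the libraries and blocked fits are given where they change a call.

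Genes named are the 15 highest and all 7 lowest called genes with separated groups, list members, PTGER4, the PDE4 genes and genes called in the difference of steps, with exceptions stated. A called gene is not reported here. The members and the 14 gene lists, which overlap, were chosen with earlier results of these data known. On simulated data (10 draws, 200 of 12591 genes changed) the comparison with RNO recovered 49.8% of genes shifted by 0.25 log2 and 89% of those shifted by 0.5, with 3.07% false calls, and the difference of steps 23.9% and 72.9%, with 4.02%. The simulated noise was normal and independent between libraries, unlike that of these data. Alternatives were other pseudocounts, filters, scalings, variance models, a replicate block, fewer groups and leaving out each library.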

Additional observations from a re-analysis of the deposited data

Results flagged for a closer look

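For 17 genes the change from adding 0.1 nM ONO differed with and without RNO, by limma's test of the difference itself. Among them, the differences in log2 change (with RNO less without) were 1.42 for NR4A3, 1.37 for IL11, 1.18 for LINC00473, 1.05 for TM4SF1, 0.954 for SOCS3, 0.954 for CCL2, 0.849 for PLPP3, 0.627 for KRT17, 0.537 for BCAR3, 0.511 for PLAUR, 0.425 for TSKU, 0.394 for MAP2K3, 0.361 for PTP4A1, 0.303 for UCK2 and 0.3 for WDR66. TP53INP1 was the 1 gene with the lower value under RNO, -0.283. Adjusted p ran from 0.0002 for TM4SF1 to 0.049 for UCK2. 

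In the 35 genes of the naming rule, each of the 10 groups of 4 was searched for a single library far from the other 3, by its gap as a share of the group's range (Dixon's 95% limit). None was found in the RNO and combination groups. Of the 350 groups searched 15 passed, and chance gives about 1 in 20. With 1 uM ONO + RNO they were NR4A3 (0.922, replicate 3 low), CCL2 (0.841, replicate 1 low), DMBT1 (0.846, replicate 1 high), HJURP (0.835, replicate 1 high) and BORA (0.842, replicate 2 high). With ONO alone they were SGK1 (0.903, replicate 3 high) and BORA (0.853, replicate 4 low) at 0.1 nM, NR4A2 (0.876, replicate 3 low) and PDE4B (0.944, replicate 2 low) at 1 nM, and PTP4A1 (0.912, replicate 2 low) at 1 uM. In vehicle replicate 2 stood high for NR4A2 (0.849) and PLPP3 (0.856). With vilanterol alone NR4A3 (0.924, replicate 3 low) and DMBT1 (0.8293, replicate 1 high) passed, and with vilanterol and RNO DMBT1 (0.93, replicate 1 high).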

How the results depend on the processing

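All 79 called genes kept their direction when each of the 8 libraries was left out, with 33 to 68 calls. Fitting only these 2 groups gave 32 calls, 29 of them among the 79. The count stayed within 1.5 times of 79 with other pseudocounts (81 and 80), no filter (58), a minimum mean of 5 TPM (73), equal totals (64), a median ratio of 1 (79), robust variances (74) and library weights (108). The number for the difference of steps was 7 to 34 with 1 library left out, 1 with only these groups and 5 with equal totals. For 1 nM ONO + RNO against 0.1 nM ONO + RNO it was 0 to 11 with 1 library left out, 2 at a minimum mean of 5 TPM and 11 with library weights. Of 29 called named genes 12 lost their call when only these 2 groups were fitted, and none of the 29 reversed in any setting. Rescaling the libraries moved the median log2 change of all tested genes from -0.0028 to 0.00657 at most.

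With the replicate block the comparison with RNO gave 330 calls, 238 with only these groups and 274 without RNO replicate 1, the last chosen after seeing the data. The block gave 324 calls for the difference of steps (116 with only these groups), 10 for 0.1 nM ONO against vehicle and 65 for the step from 0.1 to 1 nM under RNO (36 with only these groups). It ended no call among the named genes. Causes of these differences were not tested.

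Depth is unknown, groups hold 4 libraries of 1 line at 1 time, and the log2(TPM + 1) scale compresses low genes such as NR4A2 and PDE4B. In simulation the test missed about as many genes shifted by 0.25 log2 as it found. Its noise was independent between libraries, whereas same-numbered libraries here deviated together, so these rates may not hold for these data.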
